A study of Mus musculus with 2 samples.

Results

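The lysosomal cathepsins and legumain were examined in whole mouse kidney. Their 10 genes (Ctsa, Ctsb, Ctsc, Ctsd, Ctsh, Ctsk, Ctsl, Ctss, Ctsz and Lgmn) were taken by gene symbol from a table of 45777 genes. The data comprised 1 RNA-seq library from kidneys of mice with a proximal tubule-specific conditional knockout of Inmt (CKO) and 1 library from control mice (Control). Inmt encodes indolethylamine N-methyltransferase, which methylates small amines. Both groups ate standard chow and had no treatment. The labels name neither the alleles, the Cre driver, the strain and age nor the number of animals behind each library.

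Cathepsins are the main proteases of the lysosome, the acidic compartment in which endocytosed and worn-out proteins are degraded. Most are cysteine proteases, while cathepsin D is an aspartic protease and cathepsin A a serine carboxypeptidase. Legumain is a cysteine protease that cuts after asparagine and helps to mature several cathepsins. In the kidney, proximal tubule cells break down filtered protein in lysosomes after uptake through megalin and cubilin, and macrophages carry a cathepsin set of their own.

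The CKO library held 38136616 counted reads and the Control library 33618076. Inmt stood at 124 CPM in CKO (95% Poisson interval 121 to 127) and 587 CPM in Control (578 to 596), where CPM is the usual depth-scaled read count, here with library sizes adjusted by TMM. The counts cover the whole gene, so they do not show which part was deleted. All 20 proximal tubule markers in the list used here were expressed, among them Lrp2 (megalin) at 2426 CPM in CKO and 3577 CPM in Control. With 1 library in each group there was no replicate check and no test. The intervals given cover counting error only, and compare the 2 libraries rather than the conditions.

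All 10 genes were expressed, that is, at 1 CPM or more in either library. Ctss, Ctsc and Ctsk were at least 2-fold higher in CKO on the log2 scale of CPM + 0.5, and none (0) of the 10 was at least 2-fold lower. Among all 15129 expressed genes, 10.3% were at least 2-fold higher and 1.66% at least 2-fold lower. The median log2 ratio of the 10 genes was 0.26, against 0.01 for all expressed genes. The genes at least 2-fold higher were the 3 with the lowest levels. Of the 7 genes with a mean level of at least 100 CPM, a boundary chosen after the values were seen, none (0) was past 2-fold in either direction. In that range 1.34% of 1934 expressed genes were at least 2-fold higher and 4.24% at least 2-fold lower, with a median log2 ratio of -0.30, against 0.03 for the 7. Below 100 CPM, 11.6% of 13195 expressed genes were at least 2-fold higher, as all 3 genes there were.

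**Figure D1:**
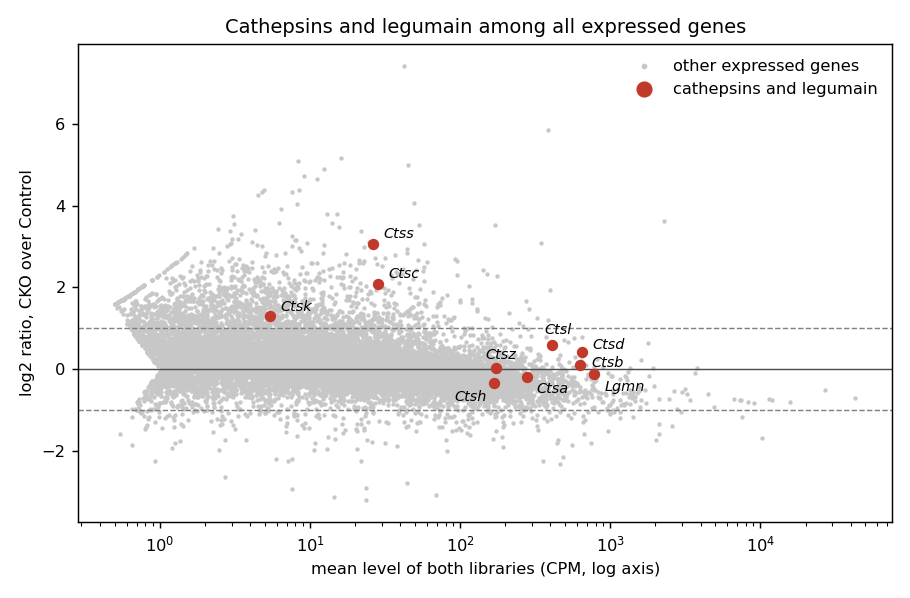
Each point is 1 expressed gene, with its mean CPM of both libraries on a log axis and its log2 ratio of CKO over Control (CPM + 0.5) on the vertical axis. Ctss, Ctsc and Ctsk lie above the upper dashed line (2-fold), and the 7 abundant genes lie between -0.34 and 0.60.

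Compared per length, in the authors' TPM, the family was led by Ctsd at 869 TPM and Lgmn at 842 TPM in CKO. In Control the order of these was the reverse, with Ctsd at 486 TPM and Lgmn at 685 TPM. The TPM ratio of Ctsd to Lgmn within a library, which no scaling between libraries can move, was 1.03 in CKO and 0.71 in Control. Ctsl was the third in CKO at 316 TPM and the seventh in Control at 155 TPM. In CKO the counting intervals of Ctsl and Ctsb overlapped (312 to 320 and 308 to 315 TPM), as did those of Ctsa and Ctsh (205 to 213 and 203 to 213 TPM). In Control those of Ctsz and Ctsh overlapped (195 to 206 and 190 to 201 TPM), as did those of Ctsk and Ctsc (2.47 to 3.79 and 2.49 to 3.12 TPM). The other neighbours in either order were separate by counting error. The highest TPM was 78.1 times the lowest in CKO and 245 times in Control.

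**Figure D2:**
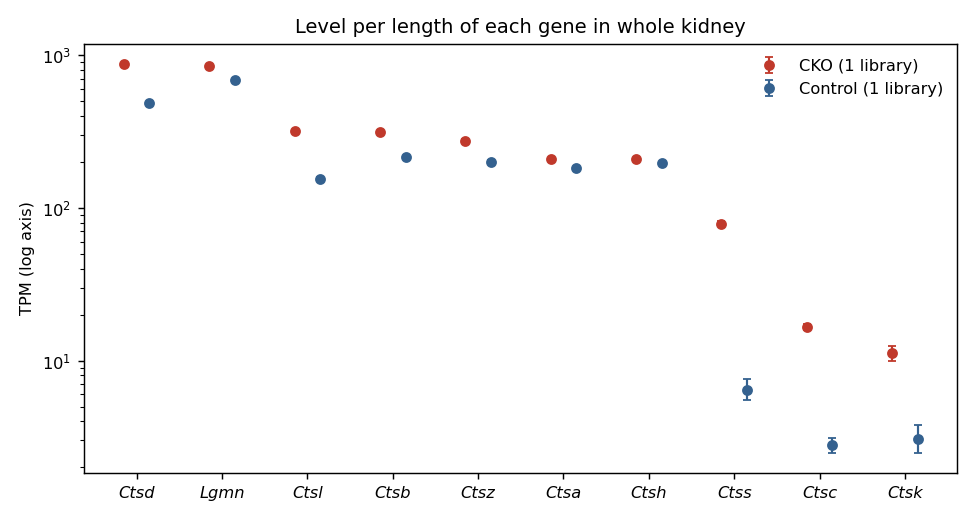
TPM of each gene (log axis) in CKO and Control, ordered by the CKO level, with 95% Poisson counting intervals. Ctsd and Lgmn lead in both libraries, and the gap between libraries is widest for Ctss, at 78.8 TPM in CKO and 6.46 TPM in Control.

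Summed over the 10 genes, the family took 0.371% of counted reads in CKO and 0.267% in Control. After TMM scaling this was 3322 CPM in CKO and 2978 CPM in Control, a ratio of 1.12. Ctss, Ctsc and Ctsk together made up 3.40% of the family's TPM in CKO and 0.578% in Control. Lgmn made up 26.8% in CKO and 32.1% in Control, and Ctsd 27.7% in CKO and 22.8% in Control.

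**Figure D3:**
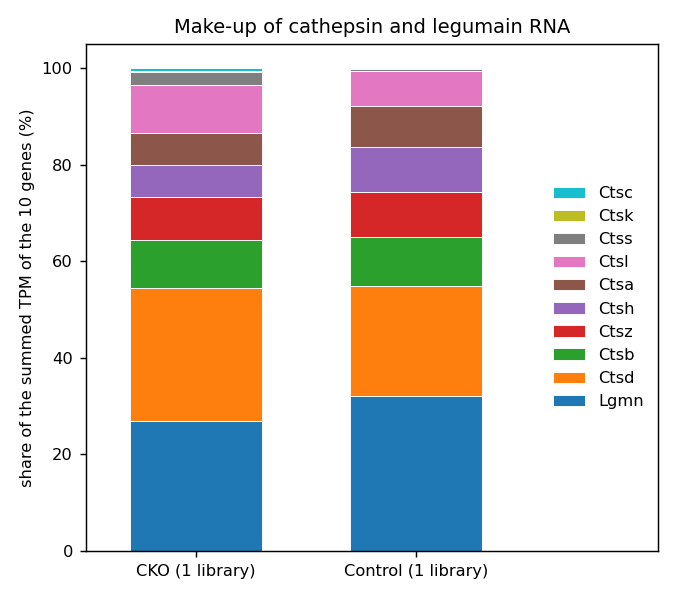
Share of the summed TPM of the 10 genes taken by each gene, in CKO and in Control (1 library each). Ctsd and Ctsl take larger shares in CKO and Lgmn a larger share in Control, and Ctss is visible as a band of 2.51% in CKO against 0.303% in Control.

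Ctsd, which encodes the aspartic endopeptidase of the lysosome, lies on the minus strand of chromosome 7 at 142375910 to 142387827 (GRCm38). It had 31472 reads in CKO and 16683 in Control, or 739 CPM (731 to 747) and 554 CPM (546 to 563). The CKO level was 1.33-fold that of Control (95% counting interval 1.31 to 1.36). Ctsl, a cysteine endopeptidase with broad activity, lies on chromosome 13 at 64361890 to 64370772. It had 20942 reads in CKO and 9752 in Control, or 492 CPM (485 to 499) and 324 CPM (317 to 330). Its ratio of 1.52 (1.48 to 1.56) was the highest of the 7 abundant genes, higher than that of 81.3% of all expressed genes. With the authors' TPM the Ctsl ratio was 2.04, past 2-fold, while the median log2 ratio of all expressed genes was 0.40 on that scale.

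Ctsb, a cysteine protease that acts both as endopeptidase and as dipeptidase, lies on chromosome 14 at 63122462 to 63145923. It had 27896 reads in CKO and 18241 in Control, or 655 CPM (647 to 663) and 606 CPM (597 to 615), a ratio of 1.08 (1.06 to 1.10). Its 3' end overlaps Fdft1 on the opposite strand over 774 bp, and Fdft1 had 1154 reads in CKO and 570 in Control. The kit was stranded, but the sources used here do not say whether counting used strand.

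Lgmn, the legumain gene, lies on chromosome 12 at 102394082 to 102439728. It had 31905 reads in CKO and 24592 in Control, or 749 CPM (741 to 758) and 817 CPM (807 to 827). Lgmn was lower in CKO at a ratio of 0.917 (0.902 to 0.933). Its log2 ratio of -0.12 turned positive under 4 of 10 alternatives, those scaled by total counts with and without the top genes, TPM and FPKM. The alternative pseudocounts and minima among the 10 cannot change a sign, and the authors' normalized signal has nearly the same scaling as TMM. Of the rest, only scaling by DESeq2 size factors kept it negative, at -0.14. Set against Lgmn reads of the same library, Ctsd had 98.6 reads per 100 Lgmn reads in CKO and 67.8 in Control. Ctsl had 65.6 in CKO and 39.7 in Control, and Ctsb 87.4 in CKO and 74.2 in Control. Ctsd, Ctsl and Ctsb were thus each higher relative to legumain in CKO than in Control. So were Ctss, Ctsc, Ctsk and, by less, the carboxypeptidase gene Ctsz (23.4 in CKO and 21.0 in Control). Ctsa (34.9 in CKO and 36.5 in Control) and Ctsh (19.9 and 23.1) were lower.

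Many lysosomal genes carry an E-box with the letters CACGTG in their promoter, the core of the element bound by TFEB, the transcription factor known for lysosome biogenesis. RefSeq promoter windows (GRCm38.p6, 250 bases before to 50 after a start site) were matched for 8 of the 10 genes, with none for Ctsb and Ctsh. CACGTG, which reads the same on both strands, was present in windows of 4 of the 8 genes, Ctsa, Ctsd, Ctsl and Lgmn, and in 8.09% of all 27025 genes with a window. All 4 are among the abundant genes. The 8-letter form TCACGTGA, which contains CACGTG, was present in windows of Ctsa and Ctsd, and in 1.12% of all genes. The stretches below show these matches, with CACGTG in capitals. They lie at chr7:142388048-142388077 and chr7:142387908-142387937 (Ctsd, minus strand), chr2:164833758-164833786 (Ctsa, plus), chr13:64370739-64370768 (Ctsl, minus) and chr12:102439124-102439153 (Lgmn, minus, at the second of 2 annotated starts). The distal Ctsd stretch and that of Lgmn lie outside annotated exons (GENCODE), the proximal Ctsd stretch and that of Ctsa, at its second start, lie within exons of annotated transcripts, and that of Ctsl overlaps an exon over 15 bases.
Ctsd, distal match: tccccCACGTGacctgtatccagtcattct
Ctsd, proximal match: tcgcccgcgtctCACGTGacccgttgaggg
Ctsa: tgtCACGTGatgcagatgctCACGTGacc
Ctsl: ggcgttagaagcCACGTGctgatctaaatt
Lgmn: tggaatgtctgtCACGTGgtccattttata
A match is a description of these letters only. Ctsd and Ctsl, with a match, had log2 ratios of 0.42 and 0.60, and Ctsa and Lgmn, also with a match, -0.19 and -0.12.

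Among the exopeptidases, Ctsa encodes a serine carboxypeptidase that also protects beta-galactosidase (Glb1) and neuraminidase 1 (Neu1) in a lysosomal complex. Ctsa (chromosome 2, 164832872 to 164841032) had 11123 reads in CKO and 8983 in Control, or 261 CPM (256 to 266) and 298 CPM (292 to 305). It was lower in CKO at a ratio of 0.876 (0.852 to 0.900), and its log2 ratio of -0.19 turned positive under the same 4 alternatives as that of Lgmn. Its complex partners were lower too, Glb1 at 164 CPM in CKO and 237 CPM in Control and Neu1 at 307 CPM in CKO and 427 CPM in Control, with log2 ratios of -0.53 and -0.48. Pltp overlaps Ctsa on the opposite strand over 1515 bp and had 517 reads in CKO and 126 in Control, few beside those of Ctsa.

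Ctsh, an aminopeptidase, lies on chromosome 9 at 90054267 to 90076095. It had 6342 reads in CKO and 5680 in Control, or 149 CPM (145 to 153) and 189 CPM (184 to 194). Its ratio of 0.790 (0.762 to 0.818) was the lowest of the 10. Its log2 ratio of -0.34 changed sign under 1 of 10 alternatives, TPM, at 0.09, and was -0.02 both with total counts and with FPKM. Ctsz, a carboxypeptidase also called cathepsin X, lies on chromosome 2 at 174427494 to 174439039. It had 7470 reads in CKO and 5163 in Control, or 175 CPM (171 to 179) and 171 CPM (167 to 176). The counting interval of its ratio of 1.02 (0.987 to 1.06) included 1.

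**Figure D4:**
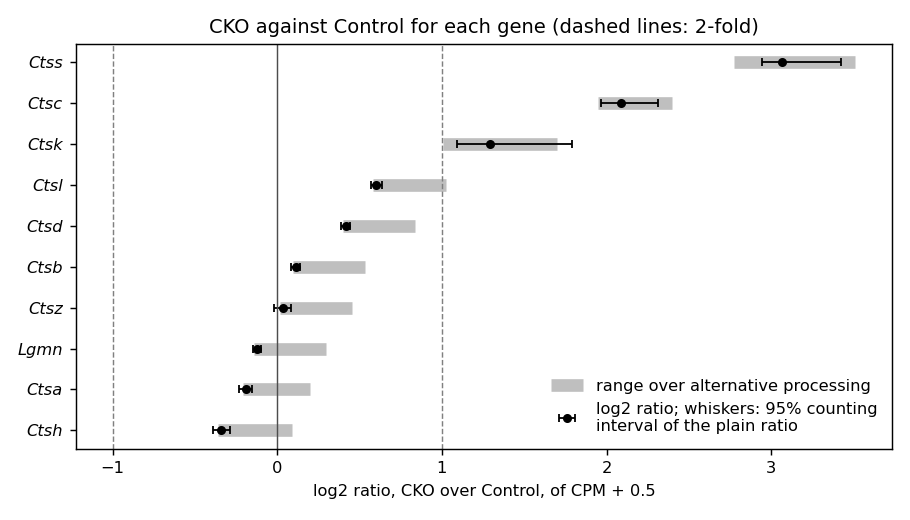
Log2 ratio of CKO over Control for each gene (points, CPM + 0.5), with the 95% counting interval of the plain ratio (whiskers) and the range over the alternative ways of processing (grey bars). Ctss, Ctsc and Ctsk stay at or beyond the 2-fold line, the bar of Ctsl just crosses it, and those of Lgmn, Ctsa and Ctsh cross 0.

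Ctss encodes cathepsin S, which stays active near neutral pH and in antigen-presenting cells cuts the invariant chain from MHC class II. It had 2014 reads in CKO and 157 in Control, or 47.3 CPM (45.3 to 49.4) and 5.21 CPM (4.43 to 6.10). Ctss was 9.07-fold higher in CKO (7.71 to 10.7), and its log2 ratio of 3.06 ranked 43 from the highest among 15129 expressed genes. Relative to Ctsh, its TPM was 0.379 in CKO and 0.0330 in Control.

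Ctsc encodes cathepsin C, a dipeptidyl peptidase that activates the serine proteases stored in granules of neutrophils, mast cells and cytotoxic lymphocytes. It lies on chromosome 7 at 88278024 to 88315861 and had 1962 reads in CKO and 315 in Control, or 46.1 CPM (44.1 to 48.2) and 10.5 CPM (9.34 to 11.7). Ctsc was 4.40-fold higher in CKO (3.91 to 4.98), with a log2 ratio of 2.09 that ranked 252 from the highest. None of the 14 granule proteases in the list used here, not all of them its targets, reached 1 CPM. Their levels summed to 1.57 CPM in CKO and 1.03 CPM in Control. Of the 14, 8 were at 0 reads in both libraries, among them Elane, Ctsg, Mcpt4 and Cpa3. Reads were present in CKO and at 0 in Control for Prtn3 (12 reads in CKO), Gzmb (7), Cma1 (6) and Tpsb2 (5). Gzmm had 23 reads in CKO and 18 in Control, and Gzma 14 in CKO and 13 in Control.

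Ctsk encodes cathepsin K, known for degrading collagen in osteoclasts and also made by fibroblasts. It had 336 reads in CKO and 88 in Control, or 7.89 CPM (7.07 to 8.78) and 2.92 CPM (2.34 to 3.60). Ctsk was 2.7-fold higher in CKO (2.13 to 3.45), with a log2 ratio of 1.29, or 1.01 with a pseudocount of 2 CPM. Its rank was 1000 from the highest.

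Ctsk and Ctss are neighbours on the plus strand of chromosome 3, at 95499210 to 95509387 and 95526786 to 95556405, with 17398 bp between them. The TPM ratio of Ctss to Ctsk was 7.08 in CKO and 2.1 in Control, so the neighbours did not differ between libraries by the same factor. Within 250 kb of the pair, 13 other named genes were expressed, with a median log2 ratio of 0.04 and a range of -0.32 to 1.32. Of these 13, 1 was at least 2-fold higher, Adamtsl4, and none (0) was at least 2-fold lower. Arnt, which lies directly before Ctsk, had a log2 ratio of 0.16, and Golph3l, the next expressed gene after Ctss, 0.25. The 100 bases before the start of each gene are shown because these neighbours differed in the size of their change (Ctsk at chr3:95499110-95499209, Ctss at chr3:95526686-95526785, plus strand). Both stretches lie outside annotated exons.
Ctsk: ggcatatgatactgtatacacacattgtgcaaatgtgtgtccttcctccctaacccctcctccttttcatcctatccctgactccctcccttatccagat
Ctss: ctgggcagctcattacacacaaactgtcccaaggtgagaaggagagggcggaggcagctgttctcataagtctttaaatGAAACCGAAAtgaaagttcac
The capitals mark a pattern of GAAA, any 2 bases and GAAA, which is bound by interferon regulatory factors and was searched on both strands. It was found in the window of Ctss and of no other of the 8 genes, and in 3.99% of all 27025 genes with a window. GAGGAAGT, a pattern bound by the myeloid factor PU.1, was found on the minus strand across the start of Ctss and at -151 to -144 of Ctsc, and in 3.69% of all genes. Neither window of the pair held CACGTG. The motifs were chosen with these sequences in view.

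Markers of other cell types differed between the libraries beside Ctss, Ctsc and Ctsk. Of 17 macrophage markers, 17 were expressed and 16 reached a 2-fold higher level in CKO. The list median of the log2 ratio was 2.39, and Ms4a7, at 0 in Control, lay above it at 2.62. Their summed level was 463 CPM in CKO and 93.3 CPM in Control. Lyz2 had a log2 ratio of 4.05, Ccr2 of 3.47 and Cd14 of 3.09. Csf1r, the most abundant by the mean of both libraries, had 85.8 CPM in CKO and 47.0 CPM in Control. The log2 ratio of Ctss lay between those of Cd14 and Itgam (3.0), and that of Ctsc between Fcgr1 (2.15) and Adgre1 (2.06). These places depend on the pseudocount. By plain ratio Ctss (9.07) was below Cd14 (10.9) and Itgam (10.7). Ctsc (4.40) was below Fcgr1 (10.2), Adgre1 (5.23) and every other marker of the list but Csf1r (1.83). The log2 ratio of Ctsk was lower than that of 16 of the 17 markers. In whole kidney, more cells of a type and more RNA per cell cannot be told apart, and the part of macrophages in these results was not tested.

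Of 12 fibroblast and pericyte markers, 11 were expressed and 9 reached a 2-fold higher level in CKO. The list median was 1.66, and the summed level was 1225 CPM in CKO and 409.8 CPM in Control. Col3a1 had a log2 ratio of 2.33, Col1a1 of 2.21 and Lum of 2.03, and Fap was at 0 in Control. The log2 ratio of Ctsk lay between those of Acta2 (1.16) and Dcn (1.37), a place that depends on the pseudocount. By plain ratio Ctsk (2.7) was above both Acta2 (2.26) and Dcn (2.62). Of 11 osteoclast and giant cell genes, 7 were expressed and 1, Tnfrsf11a (1.55), reached a 2-fold higher level. The list median was 0.53, and Ckb, the most abundant, had 0.35. Their summed level was 157 CPM in CKO and 126 CPM in Control. Dcstamp was at 0 in both libraries and Acp5, the tartrate-resistant acid phosphatase gene, had 25.8 CPM in CKO and 30.6 CPM in Control. Lymphocyte markers summed to 21.0 CPM in CKO and 6.31 CPM in Control, with 5 of 12 expressed, 4 of them at least 2-fold higher (Ighm, the most abundant, 1.70) and Cd3d at 0 in Control. Neutrophil markers summed to 5.0 CPM in CKO and 1.06 CPM in Control, with 1 of 9 expressed (Csf3r, 1.96), and S100a8, Ly6g, Mpo, Camp and Ngp at 0 in both libraries. The part of these cell types was not tested.

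Proximal tubule markers stood on the other side. Of 20, 7 were at least 2-fold lower in CKO and none (0) reached a 2-fold higher level. The list median was -0.66. It was -0.35 with total counts and -0.24 with TPM, where all expressed genes had 0.32 and 0.40. Slc5a12 alone of the 20 was above 0, at 0.26. The summed level was 25850 CPM in CKO and 53066 CPM in Control. Its largest parts were Kap (4858 CPM in CKO and 15529 in Control) and Acsm2 (4654 and 10414). Slc22a7 had a log2 ratio of -1.86, Kap, the most abundant, of -1.68 and Miox of -1.18. Lrp2 and Cubn, the megalin and cubilin genes that bring filtered protein to the lysosome, had -0.56 and -0.36. No marker was at 0 in either library, and their part in the levels of the abundant cathepsins was not tested.

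**Figure D5:**
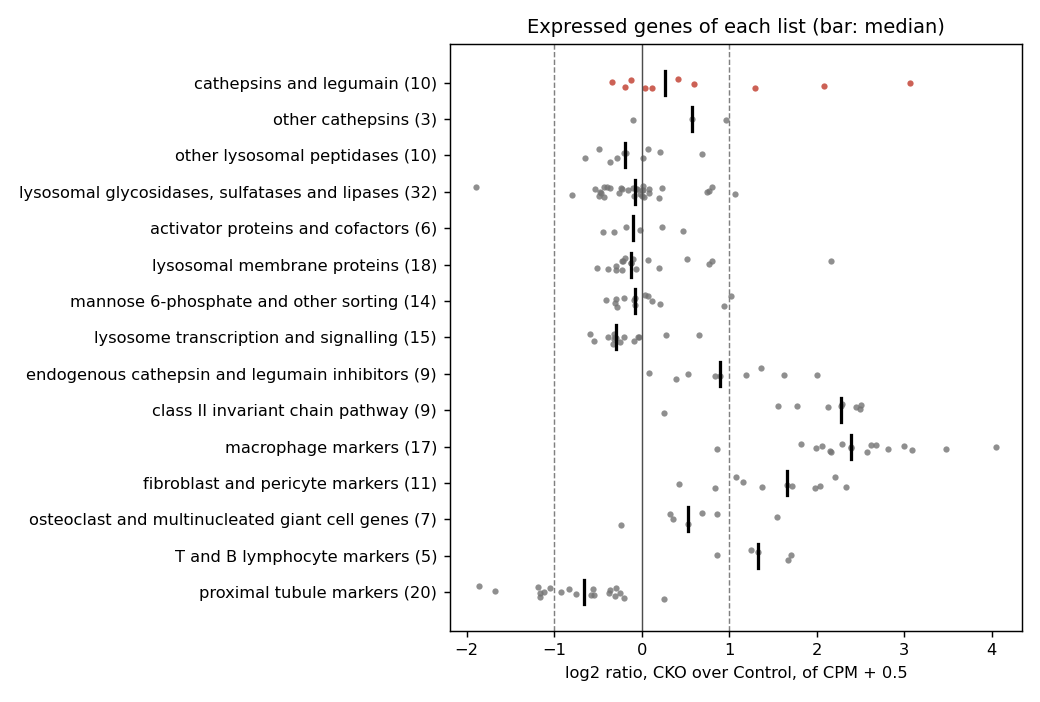
Log2 ratio of CKO over Control (CPM + 0.5) of the expressed genes of each list with at least 3 of them, 1 point per gene, with the number of genes in brackets and the median as a bar. Ctss (3.06) lies above every gene of the other lysosomal lists and within the range of the macrophage markers (0.86 to 4.05). Ctsc (2.09) and Ctsk (1.29) lie within the ranges of the macrophage markers, of the fibroblast and pericyte markers (0.42 to 2.33) and of the lysosomal membrane genes (up to 2.17, Laptm5). Both also lie within that of the class II genes (0.26 to 2.51). Ctsk lies as well within those of the inhibitors (0.09 to 2.01), lymphocyte markers (0.86 to 1.70) and osteoclast genes (-0.24 to 1.55).

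The class II pathway that cathepsin S serves was higher in CKO. Of its 9 expressed genes, 8 reached a 2-fold higher level, and the list median was 2.28. H2-DMb2, which encodes a peptide-loading chain, had a log2 ratio of 2.51, H2-Aa of 2.49 and H2-Eb1 of 2.44. Cd74, the invariant chain itself, had 293 CPM in CKO and 60.0 CPM in Control. The remaining gene, Ifi30, a lysosomal thiol reductase of antigen processing, had a log2 ratio of 0.26.

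The list of protease inhibitors holds cystatins and related inhibitors of cysteine proteases as well as serpins. Of its 9 expressed genes, 4 reached a 2-fold higher level in CKO and none (0) a 2-fold lower one, and the list median was 0.89. Serpinb6b (2.01), Serpinb9 (1.63) and Serpinb6a (1.37) had the largest log2 ratios. All are serpin genes, and Serpinb9 and Serpinb6a are known chiefly for inhibiting the serine proteases granzyme B and cathepsin G, not the 10 proteases described here. The remaining gene past 2-fold, Kng1 (1.19), encodes kininogen, which carries cystatin domains. The cystatin genes Cstb (0.84) and Cst3 (0.53) were under 2-fold in CPM, while in the authors' TPM Cstb was past it, at 213 TPM in CKO and 88.1 TPM in Control. Cst3, the cystatin C gene and the most abundant of the list, had 236 CPM in CKO and 163 CPM in Control, a ratio of 1.45 (1.40 to 1.5). Cstb, the gene of the intracellular cystatin B, had 57.0 CPM in CKO and 31.6 CPM in Control. The inhibitors Csta1, Stfa1, Stfa2, Stfa3, Cst8, Spink5 and Ahsg had no read in either library.

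Other lysosomal lists, apart from that of further cathepsins (0.58), had medians of -0.29 to -0.07, against 0.01 for all expressed genes. Of 32 glycosidase, sulfatase and lipase genes, 1 was at least 2-fold higher in CKO, Pla2g15 (1.06), and 1 at least 2-fold lower, Gusb, with a list median of -0.08. Gusb, the beta-glucuronidase gene, had 81.0 CPM in CKO and 303 CPM in Control, a ratio of 0.268 (0.257 to 0.278). Of 10 other expressed lysosomal and related peptidases, none (0) was past 2-fold, with a median of -0.19. Ggh (0.69) and Pepd (-0.65) had the largest log2 ratios. Napsa, an aspartic protease gene strongly expressed in kidney, had 932 CPM in CKO and 1307 CPM in Control, the reverse of the direction of Ctsd, the other abundant aspartic protease gene.

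Of 18 lysosomal membrane genes, 1 reached a 2-fold higher level, Laptm5 (2.17), a gene of blood-derived cells. The list median was -0.12, and the next largest log2 ratios were those of Cln3 (0.80) and Laptm4b (0.77). Lamp1, the most abundant, had 1077 CPM in CKO and 1258 CPM in Control. The 6 activator and cofactor genes had a median of -0.10, and Psap, the saposin precursor gene, had 1201 CPM in CKO and 1363 CPM in Control. Of 14 sorting genes, Sort1 was at least 2-fold higher (1.02), Sorl1 had 0.94, and M6pr, a receptor that carries mannose 6-phosphate-tagged enzymes to the lysosome, had -0.41, with a list median of -0.07. Of 15 genes of lysosome transcription and signalling, none (0) was past 2-fold, with a median of -0.29. Tfeb had 21.0 CPM in CKO and 27.6 CPM in Control, and the largest log2 ratios were those of Rragd (0.65), Tfec (-0.59) and Mtor (-0.54). The medians of these 6 lists, from glycosidases to signalling, turned positive with total counts, TPM and FPKM, and all but that of transcription and signalling (-0.10) also with total counts less the top genes. With total counts, TPM and FPKM, all expressed genes had medians of 0.32, 0.40 and 0.26.

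Of 5 further cathepsins, 3 were expressed, with a median log2 ratio of 0.58. Ctse, an aspartic protease not confined to the lysosome, had 81 reads in CKO and 22 in Control, with a log2 ratio of 0.96. Ctso had 36.5 CPM in CKO and 24.3 CPM in Control, and Ctsf 48.1 CPM in CKO and 51.8 CPM in Control. Ctsw, known from cytotoxic lymphocytes, had 33 reads in CKO and 6 in Control. Of the 9 cathepsin L-like genes known from rodent placenta and testis, 8 had no read in either library, which allows up to 3 reads of each library's total. Ctsm had 0 reads in CKO and 11 in Control.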

How the data were processed

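RNA-seq read counts, FPKM and TPM were deposited for 1 CKO and 1 Control whole-kidney library. The deposited counts are whole, unnormalized reads per gene, as their column headers name them. The FPKM values deposited by the authors are scaled by length and depth, and the TPM values deposited by the authors are scaled to a fixed total per library, per the file headers. A second deposited table holds a normalized signal, which equals each gene's reads over a single library-wide factor. Per the submitters' processing notes, the software included edgeR, DESeq2, FastQC, Cufflinks 2.2.1, HTSeq and STAR 2.7.3a, and the build was mm10. The annotation is not given in the sources used here.

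Library sizes were scaled by TMM (edgeR 4.0.16) to 42580219 effective reads for CKO and 30109747 for Control. Log2 ratios are CKO over Control of CPM + 0.5, which understates the ratio of low genes. Intervals (95%) are exact Poisson for levels and Clopper-Pearson for ratios, and cover counting error only. Alternatives varied the scaling, pseudocount, minimum, fold limit and unit. The 10 genes and the 17 gene lists were chosen with earlier results of these data known. Named genes are all 10 members and, per list, the 3 with the largest log2 ratio and the most abundant; others were named for their role or after their values were seen. Some genes that this rule names are not reported here. Coordinates are RefSeq GRCm38.p6, the assembly behind mm10, and strands and exons GENCODE M21. Steps were checked on counts simulated with the same make-up in both libraries apart from a set of changed genes. That check does not bear on the choice of scaling.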

Additional observations from a re-analysis of the deposited data

How the results depend on the processing

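The number of genes of the family at least 2-fold higher was 3 in 9 of 12 alternatives, 2 with a minimum of 10 CPM, which leaves Ctsk out, and 4 with the authors' TPM or a 1.5-fold limit, which add Ctsl. None (0) was at least 2-fold lower in any of the 12. The family's median log2 ratio was 0.58 with total counts, 0.46 with total counts less the 50 most abundant and the mitochondrial genes, 0.69 with TPM, 0.58 with FPKM and 0.11 with a minimum of 10 CPM. Over all expressed genes, the numbers at least 2-fold higher and lower were 2391 and 102 with total counts, 2306 and 158 with total counts less the top genes, 2613 and 139 with TPM, 1462 and 102 with FPKM, 825 and 167 with a pseudocount of 2 CPM, 573 and 182 with a minimum of 10 CPM, and 2920 and 1037 with a 1.5-fold limit. The median log2 ratio of all expressed genes was 0.32, 0.21, 0.40 and 0.26 with total counts, total counts less the top genes, TPM and FPKM. Relative to that median, Ctsh, Ctsa and Lgmn lay at -0.41 to -0.26, -0.26 to -0.12 and -0.19 to -0.05 over the settings run. Ctsl, Ctsd and Ctsb lay at 0.54 to 0.68, 0.35 to 0.49 and 0.05 to 0.19. A change of scaling moves a gene and that median nearly alike, so these ranges are no check of direction. They also depend on the reference. Against the median of -0.30 for expressed genes of at least 100 CPM, Lgmn (-0.12) and Ctsa (-0.19) were higher and Ctsh (-0.34) lower. No paired analysis was possible because each group has 1 library, so no library could be left out either. The depth limits Ctsk most, with 88 reads in Control.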

Other observations

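CACGTG was present in promoter windows of 8.09% of all genes with a window. Among the lysosomal lists it was present in 6 of 10 sorting genes with a window, 2 of 6 other peptidases, 1 of 3 other cathepsins, 4 of 16 membrane genes, 6 of 24 glycosidase, sulfatase and lipase genes, 3 of 14 transcription and signalling genes and 1 of 5 activators. Among the remaining lists it was present in 1 of 8 class II genes, 1 of 11 granule proteases, 1 of 9 placental and testis cathepsins and 1 of 15 proximal tubule markers. It was present in none (0) of 12 macrophage, 6 fibroblast and pericyte, 6 lymphocyte, 9 neutrophil and 5 osteoclast genes and of 14 inhibitors. These counts are a description, and no difference between lists was tested.

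Gusb had the lowest log2 ratio of all lysosomal genes listed, at -1.90, while the next lowest hydrolase, Galns, had -0.79 with 116 CPM in CKO and 202 CPM in Control.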
